A study of Mus musculus with 2 samples.

Results

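The transcription factors ATF4, ATF3, ATF5, CHOP (*Ddit3*), C/EBPβ (*Cebpb*) and C/EBPγ (*Cebpg*), together with the stress effectors *Nupr1*, *Trib3*, *Chac1* and *Sesn2*, were examined in growth plate cartilage of *Tric-b*-knockout mouse embryos. These 10 genes were listed by name as regulators and effectors of the integrated stress response, and every probe set annotated to a single one of them was taken. They covered 19 of the 45037 probe sets on the array and 10 of the 18193 genes named through the platform annotation. RNA came from femoral cartilage plates of knockout embryos at E17.5, on a C57BL/6J and 129Sv strain background. A single Affymetrix GeneChip array carried RNA from the columnar and hypertrophic chondrocyte section, and another carried RNA from the section enriched with round chondrocytes. Each RNA was a mixture of 3 preparations, so each zone had 1 array and no difference between the zones has a replicate check or a p-value. Both specimens carried the knockout, so the values compare zones and not genotypes; arrays of wild-type cartilage were not analysed here. TRIC-B, the deleted protein, is a cation channel of the ER membrane that supports calcium release from the ER.

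The integrated stress response starts when a kinase phosphorylates the initiation factor eIF2α. General translation then falls, while the mRNAs of *Atf4* and *Atf5* are translated more efficiently because of short open reading frames ahead of their coding sequences. ATF4 pairs with C/EBP proteins and binds composite C/EBP-ATF elements in genes for amino acid supply and for later stress factors, CHOP, ATF3 and TRIB3 among them. Because ATF4 is set largely at translation, its mRNA level is no measure of the protein. In mouse growth plates, ATF4 is known to promote chondrocyte proliferation and *Ihh* expression, and CHOP is known from chondrocytes whose ER is overloaded with misfolded collagen.

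The RefSeq promoter table (build GRCm38.p6) held entries for all 10 genes, 11 in total since *Atf5* had 2. Each entry is a window of 300 bases that reaches from 250 bases before the transcription start to 50 bases from the start on. The core of the composite C/EBP-ATF element, written TGATGNAA and searched on both strands, occurred in the windows of 4 of the 10 genes, against 4.51% of 27025 genes and 3.97% of 32851 windows in the whole table. The 10 genes were listed as members of the response in which ATF4 binds such elements, so these shares are no independent evidence. A match of letters does not show a bound site. All 4 matches are shown, so that the letters around them can be compared. The matched letters are in capitals, each run is given 5′ to 3′ on the strand of the gene, and positions count from 0 at the first transcribed base.
*Atf3*, positions -110 to -103, minus strand, chr1:191183425-191183454: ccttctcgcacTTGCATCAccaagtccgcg
*Nupr1*, positions -110 to -103, minus strand, chr7:126625562-126625591: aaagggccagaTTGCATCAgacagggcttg
*Chac1*, positions -193 to -186, plus strand, chr2:119351038-119351067: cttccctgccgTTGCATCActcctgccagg
*Trib3*, positions 14 to 21, minus strand, chr2:152344028-152344057: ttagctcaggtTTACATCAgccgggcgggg

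All 4 matches lay on the strand opposite to the searched letters. *Atf3*, *Nupr1* and *Chac1* shared the same 8 letters, and *Trib3* differed from them only at the letter that N leaves free. The other 6 genes had no such letters in their windows, which says nothing about more distant sites. The cyclic AMP response element TGACGTCA was found in 0 of the 10 genes and in 2.03% of all genes. The 250 bases upstream of *Atf3*, the gene with the largest difference between the zones, and of *Chac1*, the next in order, are given in full.
*Atf3*, minus strand, chr1:191183334-191183583: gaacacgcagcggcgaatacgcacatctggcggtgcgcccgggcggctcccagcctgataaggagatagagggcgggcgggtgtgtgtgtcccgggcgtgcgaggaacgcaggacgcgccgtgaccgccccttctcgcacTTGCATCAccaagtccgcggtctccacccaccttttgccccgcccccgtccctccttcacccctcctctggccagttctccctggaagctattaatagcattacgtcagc
*Chac1*, plus strand, chr2:119350992-119351241: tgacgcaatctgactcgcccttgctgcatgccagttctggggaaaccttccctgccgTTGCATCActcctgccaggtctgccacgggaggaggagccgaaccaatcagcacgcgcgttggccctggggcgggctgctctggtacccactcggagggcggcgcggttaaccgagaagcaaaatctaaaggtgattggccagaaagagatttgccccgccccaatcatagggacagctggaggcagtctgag

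The windows of the 10 genes were rich in G and C, from 54.7% to 80.7%, against a median of 52.7% over all windows. Across the genome, genes with the TGATGNAA letters had nearly the same differences between the zones as genes without them. The median log2 difference, columnar/hypertrophic minus round, was -0.02 over 278 compared genes with the letters and -0.04 over 10025 genes without them.

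All 10 genes were detected in both knockout specimens, and 9 of them had the higher signal in the columnar/hypertrophic array. Signals are linear probe set intensities as deposited, and a floor of 65.9, the 40th percentile of all signals, separated detected from undetected values. Where a gene had several detected probe sets, the one brightest on average over both arrays stood for it. Of 12761 genes so compared, 46.8% had the higher signal in the columnar/hypertrophic array, and the median log2 difference was 0.43 over the 10 genes and -0.04 over all. *Atf3* alone passed a 2-fold difference. Thus 1 of the 10 genes was higher by 2-fold or more in the columnar/hypertrophic array, against 4.28% of all genes, and 0 of 10 were lower by 2-fold or more, against 6.25%. At a 1.5-fold rule the count was still 1 of 10, near the share of all genes, 10.4%. The differences of the 10 genes were thus mostly of one direction but, apart from *Atf3*, of small size. In such bulk specimens, fewer cells expressing a gene and less RNA per cell cannot be told apart.

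**Figure D1:**
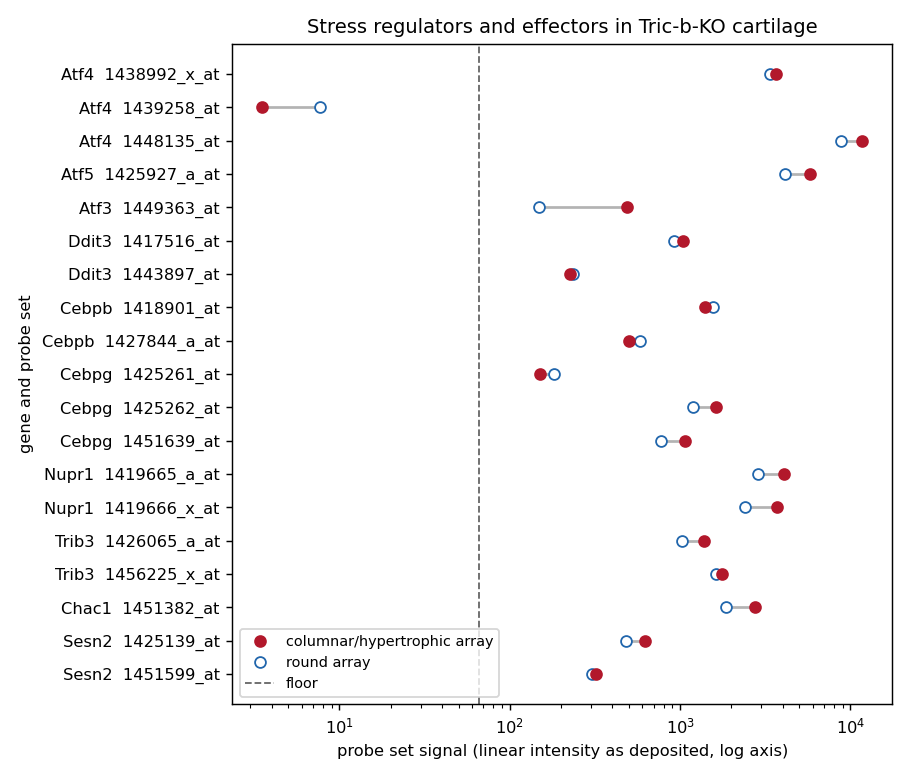
Signals of all 19 probe sets of the 10 genes (x axis, linear intensity on a log axis) in the columnar/hypertrophic array (filled) and the round array (open), 1 array per zone, with the floor of 65.9 as a dashed line. *Atf3* shows the widest gap (491 against 149), and the probe set of *Atf4* left of the floor was not compared.

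*Atf4*, the factor that phosphorylated eIF2α brings into action, had a signal of 11757 in the columnar/hypertrophic array against 8830 in the round array on probe set 1448135_at, a log2 difference of 0.41. Its other detected probe set, 1438992_x_at, read 3652 in the columnar/hypertrophic array against 3386 in the round array, a log2 difference of 0.11. The suffix _x_at marks probes that can also match other transcripts. Probe set 1439258_at lay far under the floor at 3.53 in the columnar/hypertrophic array against 7.63 in the round array, and was not compared. The difference of *Atf4* depended on the scaling of the arrays. A lowess curve through the differences of all probe sets stood at 0.16 at the level of this probe set, which left 0.26 after lowess centring. The difference was 0.25 after quantile normalization and 0.50 after median centring.

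*Atf5*, a relative of *Atf4* known for its link to mitochondrial stress, had signals of 5784 in the columnar/hypertrophic array against 4102 in the round array on its single probe set, a log2 difference of 0.50. It stayed on that side under each scaling, from 0.37 to 0.59.

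*Atf3*, a stress-inducible factor that often represses transcription and is also an immediate early gene, stood apart from the other members. Its single probe set, 1449363_at, read 491 in the columnar/hypertrophic array against 149 in the round array, a 3.30-fold difference (1.72 on the log2 scale). Of the 12761 compared genes, 180 (1.41%) had a difference at least as large in this direction. The round signal was 2.26 times the floor, so this value rests on a dim reading. With the floor raised to the 60th percentile, 206.9, the round signal fell under it and the difference became a bound of 1.25.

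*Ddit3*, which encodes the pro-apoptotic factor CHOP, differed little between the zones. Probe set 1417516_at read 1046 in the columnar/hypertrophic array against 914 in the round array, a log2 difference of 0.19. Probe set 1443897_at read 227 in the columnar/hypertrophic array against 233 in the round array, a difference of -0.04. The 2 readings thus lay on opposite sides of 0, and their mean was 0.08.

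The C/EBP partners went separate ways. *Cebpg*, encoding a short C/EBP protein that pairs with ATF4, had signals of 1619 in the columnar/hypertrophic array against 1193 in the round array on 1425262_at, a log2 difference of 0.44. Probe set 1451639_at gave nearly the same difference, 0.45, with signals of 1061 in the columnar/hypertrophic array against 774 in the round array. The dim probe set 1425261_at read 151 in the columnar/hypertrophic array against 182 in the round array, a difference of -0.27. It brought the mean over the 3 probe sets down to 0.21. *Cebpb*, known in mice for the switch of chondrocytes from proliferation to hypertrophy, was the only member with the lower signal in the columnar/hypertrophic array. It read 1399 in the columnar/hypertrophic array against 1554 in the round array on 1418901_at, a log2 difference of -0.15. On 1427844_a_at it read 502 in the columnar/hypertrophic array against 580 in the round array, a difference of -0.21.

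Of the co-regulators, *Nupr1* showed the clearer difference. This gene encodes a small stress-induced chromatin protein, and 1419665_a_at read 4092 in the columnar/hypertrophic array against 2848 in the round array, a log2 difference of 0.52. Probe set 1419666_x_at read 3681 in the columnar/hypertrophic array against 2414 in the round array, a difference of 0.61. *Trib3* is induced by ATF4 and CHOP and encodes a pseudokinase that restrains both. It read 1750 in the columnar/hypertrophic array against 1622 in the round array on 1456225_x_at, a log2 difference of 0.11. The suffix _x_at again marks probes that can also match other transcripts. The other *Trib3* probe set, 1426065_a_at, read 1383 in the columnar/hypertrophic array against 1029 in the round array, a difference of 0.43. The size given for *Trib3* therefore depended on the probe set, although both had the same sign.

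The effectors had higher signals in the columnar/hypertrophic array. *Chac1*, encoding an enzyme that degrades glutathione, read 2736 there against 1856 in the round array on its single probe set, a log2 difference of 0.56. This was the largest difference of the 10 genes after *Atf3*, yet 11.2% of all compared genes had one at least as large. *Sesn2*, encoding a leucine sensor that restrains the growth kinase complex mTORC1, read 626 in the columnar/hypertrophic array against 481 in the round array on 1425139_at, a log2 difference of 0.38. On 1451599_at it read 319 in the columnar/hypertrophic array against 304 in the round array, a difference of 0.07.

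**Figure D2:**
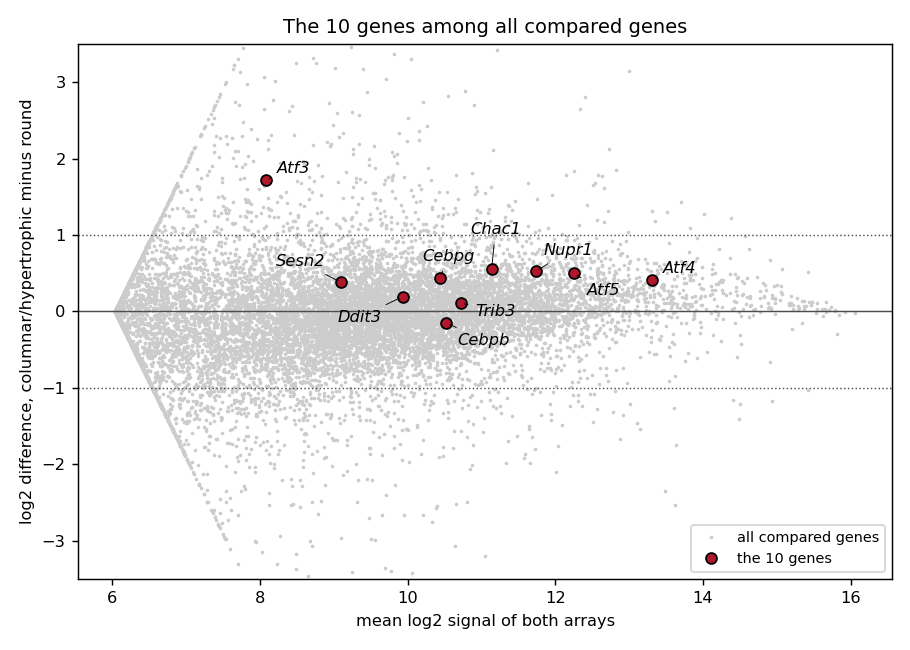
Log2 difference between the zones (y axis, columnar/hypertrophic minus round) against the mean log2 signal of both arrays (x axis) for the 12761 compared genes (grey) and the 10 genes (red). Dotted lines mark 2-fold, and 45 genes beyond 3.5 on the y axis are not drawn. Of the red points, 9 lie inside the grey cloud between -0.15 and 0.56, while *Atf3* lies at 1.72.

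Over the compared probe sets rather than genes, 14 of 18 had the higher signal in the columnar/hypertrophic array, against 42.4% of all compared probe sets. Among the 7 genes with more than 1 compared probe set, 5 had the same sign on each, and *Ddit3* and *Cebpg* did not. The spread available here is the disagreement among probe sets for the same gene. Its pooled SD over 5446 genes was 0.34 on the log2 scale, and it holds no variation between animals. On the brightest probe sets, the differences of *Ddit3*, *Trib3* and *Cebpb* were smaller than this SD, and those of the other 7 genes were larger. *Trib3* exceeded the SD on its other probe set (0.43). *Atf4*, *Sesn2* and *Cebpg* each had another probe set with a smaller difference (0.11, 0.07 and -0.27). In the order *Chac1*, *Nupr1*, *Atf5*, *Cebpg*, *Atf4* and *Sesn2*, from 0.56 to 0.38, no neighbours differed by more than the pooled SD. With the mean over probe sets in place of the brightest, the median over the 10 genes was 0.26, and *Atf4*, *Sesn2* and *Cebpg* had 0.26, 0.22 and 0.21.

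**Figure D3:**
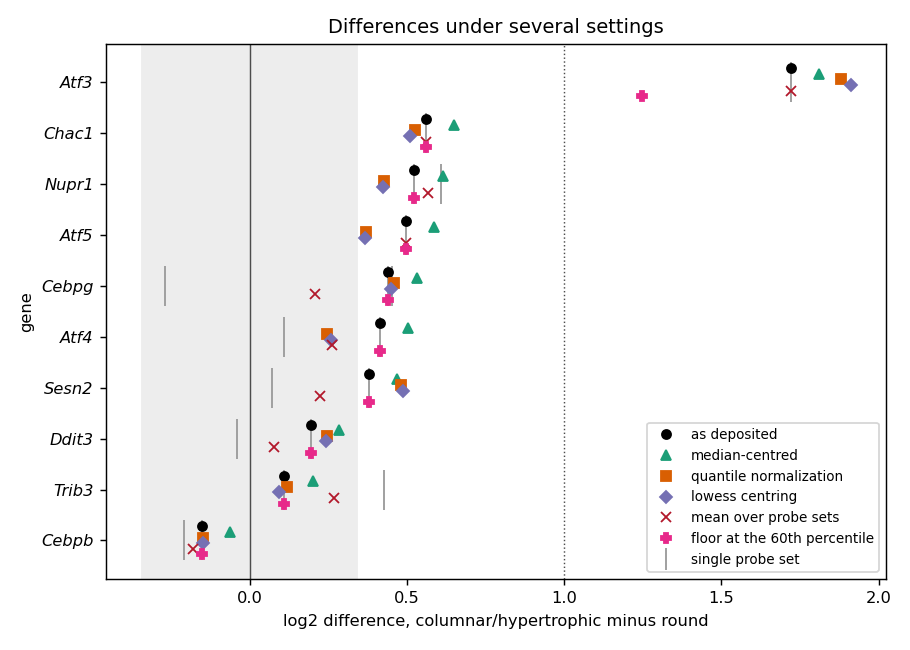
Log2 difference between the zones (x axis, columnar/hypertrophic minus round) of each gene (rows) under 6 settings, with single probe sets as grey ticks. The shaded band spans the pooled SD of 0.34 on each side of 0, and the dotted line marks 2-fold. No gene changes its side of 0, and *Cebpg* and *Ddit3* each have a probe set left of it.

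The closest relatives of the 10 genes were looked up in the same arrays, and 10 of the 13 listed were compared. Of these, 5 had the higher signal in the columnar/hypertrophic array and 5 the lower one, and the median log2 difference was 0.04. *Batf3*, encoding a small basic leucine zipper factor of the ATF3 and JUN group, read 1109 in the columnar/hypertrophic array against 117 in the round array, a log2 difference of 3.25. *Trib2* and *Trib1*, the relatives of *Trib3*, were more than 2-fold lower in the columnar/hypertrophic array. *Trib2* read 986 there against 2906 in the round array (-1.56), and *Trib1* read 84.6 there against 185 in the round array (-1.13). The *Trib1* readings and the round reading of *Batf3* were dim, all under the 60th percentile of 206.9, so these differences are less certain. *Sesn3* had a log2 difference of 0.37, close to that of *Sesn2*, and *Sesn1* had -0.07. *Chac2* had 0.24, *Cebpd* -0.22, *Jdp2* 0.14, *Nupr1l* 0.17 and *Batf* -0.93. Both *Nupr1l* readings, the columnar/hypertrophic reading of *Batf* and the round reading of *Chac2* were also under 206.9. Probe sets of *Cebpd* ran from -0.22 to 0.10 and those of *Sesn1* from -0.41 to 0.04. *Cebpa* and *Batf2* lay under the floor in both arrays, and *Cebpe* was not analysed here.

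The eIF2α kinase genes upstream of ATF4 lay on both sides of 0. All 4 were detected, with a median log2 difference of 0.01, and *Eif2ak3* (PERK) stood at 2568 in the columnar/hypertrophic array against 2605 in the round array. Only 1 of the 3 *Eif2ak3* probe sets was compared. *Eif2ak4* (GCN2) had a difference of 0.04, *Eif2ak1* (HRI) 0.32 and *Eif2ak2* (PKR) -0.39. The probe sets of these 3 genes disagreed in sign, from -0.21 to 0.04 for *Eif2ak4*, from -0.48 to 1.07 for *Eif2ak1* and from -0.39 to 0.02 for *Eif2ak2*. The 7 compared genes of eIF2 and its exchange factor eIF2B had a median of 0.31, with *Eif2b3* at 0.78. *Eif2s1*, the gene of eIF2α itself, was not analysed here. *Ppp1r15a* (GADD34), the ATF4 and CHOP target that directs a phosphatase to eIF2α, read 1197 in the columnar/hypertrophic array against 925 in the round array, a log2 difference of 0.37. The 5 genes of that phosphatase had a median of 0.23, which was 0.058 after quantile normalization.

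The amino acid genes downstream of ATF4 shared the direction of the 10 genes. Of 29 compared genes for aminoacyl-tRNA synthetases, amino acid synthesis and amino acid transport, 27 had the higher signal in the columnar/hypertrophic array. The share of all compared genes was 46.8%, and the median of the 29 genes was 0.53 on the log2 scale. On the brightest probe sets, only *Psph* (serine synthesis, 1.46) and *Cth* (cysteine synthesis, 1.30) among them passed 2-fold. All 12 synthetase genes lay between 0.28 and 0.77 on these probe sets. Probe sets of some of the 29 genes disagreed in sign, from -0.79 to 1.96 for *Shmt2* and from -0.46 to 0.56 for *Aldh18a1*. Those of *Cars* ran from -0.11 to 0.37, and those of *Slc38a2* from 0.42 to 1.05. Of 14 compared genes for other effectors of ATF4 and CHOP, 12 lay on the same side with a median of 0.32. *Bbc3*, encoding the pro-apoptotic protein PUMA, read 206 in the columnar/hypertrophic array and lay under the floor at 49.2 in the round array, a bound of 1.65. Both *Bbc3* readings were under the 60th percentile of 206.9, so a floor set there leaves no comparison. *Bcl2l11*, encoding the pro-apoptotic protein BIM, went the other way, with 153 in the columnar/hypertrophic array against 290 in the round array (-0.92), and *Vegfa* had -0.72. The columnar/hypertrophic reading of *Bcl2l11* was also under 206.9, and its compared probe sets ran from -0.92 to -0.25. *Stc2* and *Adm2*, both encoding secreted stress-induced proteins, had 0.76 and 0.54.

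Other arms of the stress response were compared in the same way. The list of IRE1 and ATF6 branch genes also held *Creb3l2*, which encodes BBF2H7, a separate ER stress sensor. *Creb3l2* had -0.36 on its brightest probe set and 0.35 on the other. This list had a median log2 difference of 0.34, led by *Creld2* at 0.87. Of its 14 genes, 12 lay on the columnar/hypertrophic side, against 46.8% of all compared genes. The count was 10 of 14 after quantile normalization and after lowess centring, with medians of 0.31 and 0.25. Of all compared genes, 52.4% and 51.3% were then on that side. The 7 mitochondrial chaperone and protease genes of the response linked to ATF5 had a median of 0.27, and *Hspd1* (HSP60) had 0.63. The glutathione genes around CHAC1 had a median of 0.40 over 7 genes, with *Gclm* at 0.66 and *Oplah* at -0.83. The GATOR and mTORC1 genes downstream of SESN2 were spread around 0, with a median of -0.06 over 13 genes that turned to 0.03 after median centring, 0.03 after quantile normalization and 0.04 after lowess centring. Because the 10 genes and these lists were chosen with earlier results known, such counts describe the arrays and do not set the 10 genes apart.

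**Figure D4:**
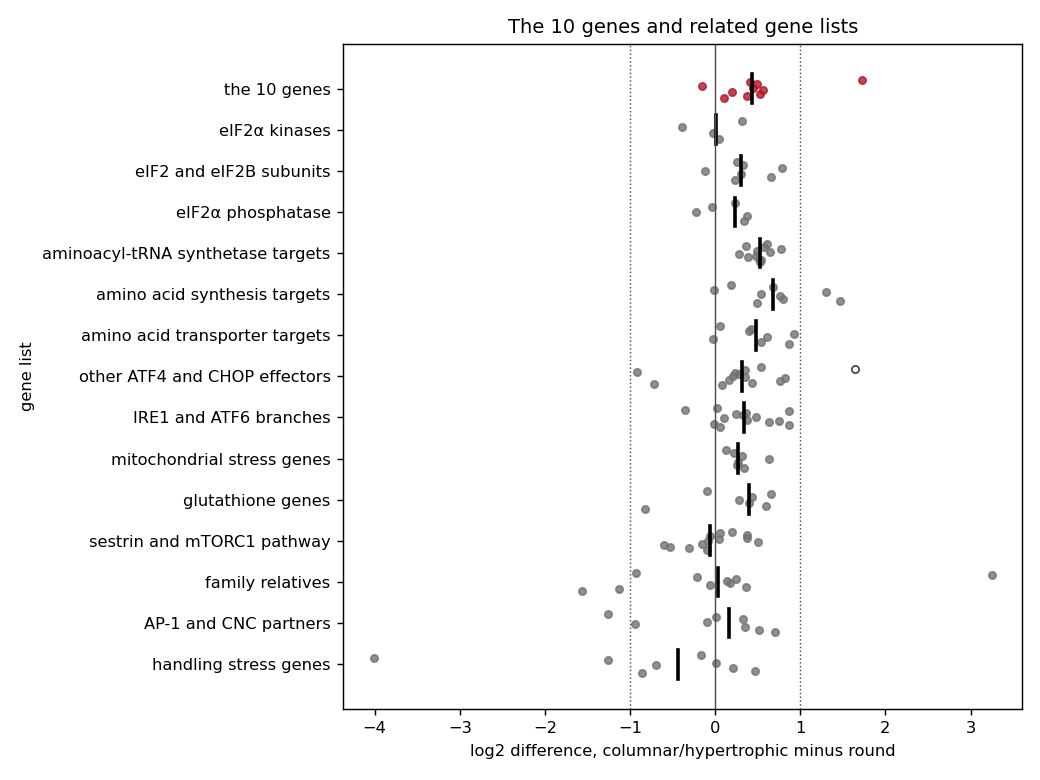
Log2 difference between the zones (x axis, columnar/hypertrophic minus round) of every compared gene (points) of the 10 genes (top row) and of related gene lists (other rows), with the median of each as a black bar. Open points are bounds, and dotted lines mark 2-fold. The row of IRE1 and ATF6 branches includes *Creb3l2* (BBF2H7), a separate ER stress sensor. The medians of the 3 amino acid lists (0.52, 0.68 and 0.48) lie near that of the 10 genes (0.43), and that of the eIF2α kinases lies at 0.01.

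Among the immediate early genes, with which *Atf3* is often induced, those that differed most were lower in the columnar/hypertrophic array. *Egr1* read 221 in the columnar/hypertrophic array against 3559 in the round array (a log2 difference of -4.01), *Fos* read 1509 in the columnar/hypertrophic array against 3614 in the round array (-1.26), and *Ier2* and *Junb* had -0.86 and -0.94. *Junb* read 72.4 in the columnar/hypertrophic array against 139 in the round array, both dim readings under the 60th percentile of 206.9. *Jun*, a pairing partner of ATF3, had -0.09 on its brightest probe set and -0.67 on the other. *Fosb* read 82.2 in the columnar/hypertrophic array against 81.9 in the round array, and *Fosl2* and *Jund* had 0.33 and 0.35. The other *Fosl2* probe set had -0.06. The 8 compared AP-1 and CNC partners as a whole had a median of 0.17, with *Nfe2l2* (NRF2, the oxidative stress factor) at 0.70. The heat shock genes lay on both sides of 0, from -0.70 for *Hspa1a*, which was dim in both arrays, to 0.47 for *Hsph1*. Over 8 immediate early and heat shock genes the median was -0.43, with 5 of them lower in the columnar/hypertrophic array. Their part in the differences of the 10 genes was not tested.

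Marker genes differed between the specimens beside every value above. All 8 general chondrocyte markers were detected in both arrays, with a median log2 difference of 0.02 that turned to -0.17 after lowess centring. All 5 compared columnar and hypertrophic markers were higher by 2-fold or more in the columnar/hypertrophic specimen, and *Ihh* read 3900 there against 87.8 in the round array. *Mmp13* lay under the floor in both arrays. Of 4 compared markers of round or resting chondrocytes and the joint surface, 3 were lower by 2-fold or more in the columnar/hypertrophic specimen, and *Prg4* (lubricin) read 94.1 there against 5260.2 in the round array. Of 8 markers of perichondrium, tendon and fibroblasts, 7 were lower by 2-fold or more in the columnar/hypertrophic specimen, with summed signals of 25469 there against 95166 in the round array. Of the listed markers of other cells, 1 of 4 for erythroid, 4 of 6 for myeloid, 3 of 4 for endothelial and 3 of 5 for skeletal muscle cells were compared. Sums were taken over the compared markers. For erythroid cells only *Alas2* was compared, at 37.7 in the columnar/hypertrophic array, under the floor, against 83.8 in the round array. The endothelial sum was 226 in the columnar/hypertrophic array against 243 in the round array, over dim markers of opposite direction. *Pecam1* had a bound of -0.57, *Kdr* had -0.41 and the brightest probe set of *Cdh5* had a bound of 0.45. The myeloid sum, 1748 in the columnar/hypertrophic array against 1524 in the round array, was mostly *Ctsk* (1385 against 1231). Of the other myeloid markers, *Csf1r* and *Lyz2* had log2 differences of 0.82 and 0.47, and *Cd68* had a bound of -0.62. The muscle sum, 337 in the columnar/hypertrophic array against 319 in the round array, joined markers of opposite direction. *Acta1* read 291 in the columnar/hypertrophic array against 112 in the round array (1.38), and *Des* read 28.1 in the columnar/hypertrophic array, under the floor, against 139 in the round array (a bound of -1.08). *Ptprc*, *Acp5*, *Tek*, *Myh3*, *Myog* and *Epb42* lay under the floor in both. The part of these other cells in the differences of the 10 genes was not tested. *Tmem38b*, the deleted gene, gave signals from 43.1 to 304 in the columnar/hypertrophic array and from 69.4 to 323 in the round array over 4 probe sets, and since the place of these probes relative to the deletion is not known here, they do not check the genotype.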

How the data were processed

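Total RNA from the 2 knockout specimens had been hybridized to Affymetrix GeneChip mouse arrays. The deposited values were linear intensity signals per probe set. The submitters' processing notes name MAS5, while robust multiarray analysis, a log-scale method, is described in the study's methods. The deposited values are not on a log scale. Detection calls were not used here. Trimmed means (2% at each end) were 496 for the columnar/hypertrophic array and 497 for the round array, so no scaling was added. Groups were taken from the sample titles.

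Of 45037 probe sets, 34945 carried 1 gene symbol, 932 carried several and 9160 had no name in the annotation used here. Probe sets that did not exceed the floor in either array were left out. Where only 1 array was under it, that value was raised to the floor, giving a bound. A total of 29258 probe sets were compared. Differences were taken on the log2 scale, columnar/hypertrophic minus round. With 1 array per zone, no test was made. The 10 genes, the related lists and the settings were chosen with earlier results of these data known. Named were all 10 genes and their relatives, the deleted gene, zone markers, and, from each list, up to 4 genes that exceeded the floor in both arrays and differed most. Genes named outside this rule were picked with their values in view. These were *Bbc3*, *Adm2*, *Jun*, *Jund*, *Fosb*, *Fosl2*, *Hsph1*, *Shmt2*, *Aldh18a1*, *Cars*, *Slc38a2*, *Creb3l2*, *Alas2*, *Cd68*, *Pecam1*, *Cdh5*, *Des* and the undetected markers.

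Alternatives covered scaling, floors at the 20th and 60th percentiles or none, the probe set rule and the size rule. The steps were tested on simulated data, with large changes put into probe sets well above the floor and a shift put into a list of genes. That simulation does not cover a small difference of a single gene or a dim reading. The number of arrays limits the precision. Computation used pandas 2.3.3 and numpy 2.4.6 under Python 3.11.15, lowess came from statsmodels 0.14.6, and plots from matplotlib 3.10.9.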

Additional observations from a re-analysis of the deposited data

How the results depend on the processing

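No paired analysis was possible because there was a single array for each zone, so nothing could be tested. Each of the 10 genes kept its side of 0 under every setting that gave a value, and the ranges over all settings were 1.25 to 1.91 for *Atf3*, 0.25 to 0.50 for *Atf4*, 0.51 to 0.65 for *Chac1*, 0.42 to 0.61 for *Nupr1*, 0.08 to 0.28 for *Ddit3* and -0.18 to -0.06 for *Cebpb*. 1 setting left out all probe sets with the suffixes _a_at, _s_at or _x_at. *Atf5*, *Nupr1* and *Trib3* have only probe sets ending in _a_at or _x_at. That setting therefore gave 7 genes, 6 of them on the columnar/hypertrophic side, and it does not show that the probe sets left out are unspecific. The count past 2-fold was 1 under every setting, 3-fold included. Values moved by more than the pooled SD (divided by the root of the number of genes for medians) were *Atf3* under the 60th percentile floor (1.25) and the median of the 10 genes with the mean over probe sets (0.26). After quantile normalization the eIF2α phosphatase, amino acid synthesis and endothelial medians were 0.058, 0.52 and -0.20. After lowess centring the amino acid synthesis, mTORC1 pathway, chondrocyte, columnar and hypertrophic, and endothelial medians were 0.53, 0.041, -0.17, 3.22 and -0.15. The cause was not tested. Of all compared genes, 546 were higher by 2-fold or more in the columnar/hypertrophic array and 798 were lower as deposited, a columnar/hypertrophic share of 40.6%, against 50.3% after quantile normalization and 52.8% after lowess centring. The dim readings of *Atf3* in the round array and of the dimmest *Cebpg* probe set, within 3 times the floor, are the least certain.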
